A study of Mus musculus with 16 samples.

Results

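Coagulation and complement factors are plasma proteins made largely by hepatocytes, and 44 of their genes were selected by gene symbol. Of these, 40 had a probe set annotated to 1 gene only, among 19237 genes measured in that way. Where a gene had several such probe sets, the one with the highest mean log2 intensity was used. Klkb1, Cpb2, Masp2 and C3 had none and are not analysed here. The 40 genes comprised 20 of clotting and fibrinolysis and 20 of complement.

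Clotting is a cascade of serine proteases: factor VII bound to tissue factor activates factor X, factor X with its cofactor factor V activates prothrombin, and thrombin cuts fibrinogen into fibrin. Antithrombin, protein C and the protein C cofactor protein S hold the cascade in check, and plasmin dissolves the clot. Complement is another protease cascade of plasma, started through C1q, through mannose-binding lectins or through the alternative pathway, and it ends in a pore built from the terminal components.

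The study compared LRH-1 hep-/- livers (knockout, n = 8) with LRH-1 hep +/+ livers (control, n = 8), and asked by this design which liver transcripts differ when the receptor is lost. Nr5a2 encodes LRH-1 (liver receptor homologue 1), a transcription factor of the nuclear receptor family, and "hep" in the genotype name points to a change in hepatocytes. The mice were 17 to 19 weeks old in every group, ate freely and were killed at 7 am, and RNA of each whole liver went on 1 Affymetrix array. The labels name no Cre driver, strain or sex, so what other liver cells kept of LRH-1 is not known from them.

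Levels below are log2 of the deposited intensity. Changes are knockout minus control with the standard error (SE) of limma, a linear model with variances shared across genes, and a gene was called when its p-value adjusted over all 19237 genes was under 0.05. Nr5a2 spanned 7.25 to 8.25 (median 7.77) in knockout livers and 8.45 to 8.78 (median 8.70) in control livers, and the groups did not overlap. Knockout 8 had the highest Nr5a2 level of the knockouts. The same liver held the lowest value of its genotype in 15 of the 40 clotting and complement genes and the highest in another 15, so the counts below are also given without it. The number of arrays limits the precision, since array intensities carry no read depth.

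Among the 40 genes, 6 fell and 3 rose in knockout livers. The 6 that fell were the protease factor VII (F7), factor X (F10), antithrombin (Serpinc1), plasminogen (Plg) and the alpha and gamma chains of complement component 8 (C8a and C8g). The 3 that rose were protein S (Pros1), complement component 9 (C9) and complement factor I (Cfi). The 9 called genes made up 22.5% of the members, against 8.7% of all 19237 genes. The genes called lower were 15% of the members against 3.2% of all genes, and those called higher were 7.5% against 5.49%.

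Because 39 of the 40 members were at or above the median intensity of all genes, the shares were also read against the 9619 genes there. In that brighter set 13.9% of genes were called, 5.61% lower and 8.32% higher, while 9 of the 39 members (23.1%) were called. The members' share of lower calls lay above both backgrounds, and their share of higher calls lay between them. These shares only describe the list, because its members were chosen with earlier results of these data known, and no excess was tested. The median change of the members was -0.08, against 0.00 over all genes. Of the 31 members not called, 30 had a 95% interval of the change that stayed within 0.5 of 0 on the log2 scale, and F11 was the exception. Of the called members only F7 changed by more than 0.5, so this band does not show the 30 to be unchanged. Without knockout 8, 8 members were called lower and 3 higher, and without knockouts 3 and 8 the counts were 7 and 3. Over all genes the calls also increased, to 667 lower and 1154 higher without knockout 8 and to 646 lower and 1178 higher without both, against 616 lower and 1057 higher with every liver.

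**Figure D1:**
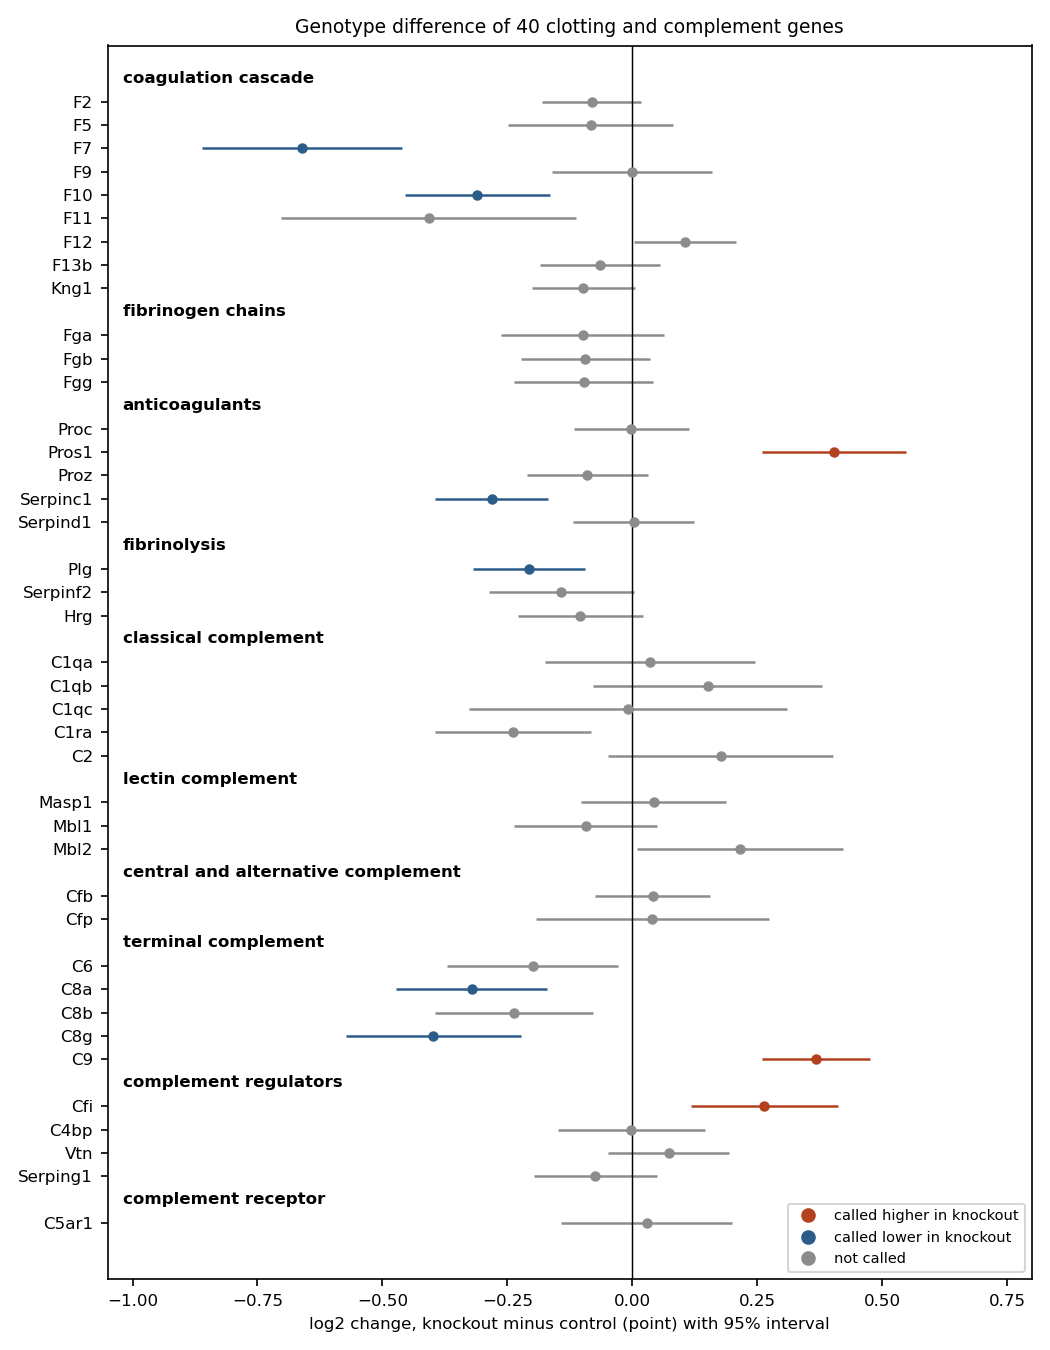
Log2 change (knockout minus control, horizontal axis) of each of the 40 genes with its 95% interval from limma, in groups by role. Blue genes were called lower, red genes higher and grey genes not called; F7 has the largest fall, -0.66, and Pros1 the largest rise, 0.40.

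In clotting and fibrinolysis 4 genes were called lower and 1 higher, with 17 of 20 changes below 0 and a median of -0.10. In complement 2 genes were called lower and 2 higher, with 9 of 20 changes below 0 and a median of 0.03. Of all genes, 49.2% had a change below 0, and all 8 hepatocyte markers measured did, with a median of -0.02. The difference between the arms was not tested. In a bulk liver sample, fewer cells of a type and less RNA per cell cannot be told apart.

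Factor VII, the protease that starts the cascade when it binds tissue factor, had the largest change of all members. F7 lay between 7.33 and 8.14 (median 7.71) in knockout livers and between 8.18 and 8.59 (median 8.32) in control livers. All 8 knockouts were below every control, with knockout 8 the closest to them. The change was -0.66 ± 0.10 (SE), or 63.2% of the control level, with a limma adjusted p of 7.06e-05. Over every alternative setting tried the change stayed between -0.73 and -0.61.

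Factor X, which factor VII activates, lies next to F7 on chromosome 8 with no protein-coding gene between them in the GRCm38.p6 annotation. F10 lay between 8.74 and 9.24 (median 9.11) in knockout livers and between 9.26 and 9.48 (median 9.41) in control livers. The groups did not overlap, although the highest knockout and the lowest control nearly met, and knockout 8 was the lowest of all. The change was -0.31 ± 0.07 (SE), 80.7% of the control level, with an adjusted p of 0.00521. Proz follows F10 on the same chromosome and encodes protein Z, the cofactor of an inhibitor of active factor X. Proz averaged 9.53 ± 0.10 (SD, n = 8) in knockout livers and 9.62 ± 0.08 (SD, n = 8) in control livers, a change of -0.09 that was not called. Whether the changes of these 3 neighbours differ from each other was not tested. Without overlap between groups, 3 members were lower in knockout livers (F7, F10 and Serpinc1), against 1.2% of all genes, and 1 was higher (C9), against 1.69% of all genes.

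The starts of F7 and F10 are shown because these neighbours fell together. The windows are the RefSeq sequence of GRCm38.p6 from 250 bases before to 50 after the gene start, both on the plus strand, F7 at chr8:13025784-13026083 and F10 at chr8:13037058-13037357. Capitals mark a match to CAAGGNCA, the letters used here for an LRH-1 site, on either strand.
F7: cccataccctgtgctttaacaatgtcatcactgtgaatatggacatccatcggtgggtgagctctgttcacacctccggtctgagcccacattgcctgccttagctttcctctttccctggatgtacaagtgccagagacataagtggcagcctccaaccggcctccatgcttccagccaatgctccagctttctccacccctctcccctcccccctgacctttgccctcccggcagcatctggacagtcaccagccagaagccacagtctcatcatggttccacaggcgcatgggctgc
F10: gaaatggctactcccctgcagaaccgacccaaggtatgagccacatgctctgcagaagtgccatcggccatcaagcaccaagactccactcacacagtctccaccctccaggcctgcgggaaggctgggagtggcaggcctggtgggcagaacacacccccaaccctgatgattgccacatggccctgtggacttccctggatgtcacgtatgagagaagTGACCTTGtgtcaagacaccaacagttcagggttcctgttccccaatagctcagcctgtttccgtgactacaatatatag
F10 carries the match on the opposite strand at position -30 from the gene start. The F7 window holds no match to CAAGGNCA or to the other patterns searched, CAAAGTCCA for HNF4, GTTAATNAT for HNF1, TTGCNNAA for C/EBP and TTCCNGGAA for STAT3, each on both strands. Windows were found for 31 of the 40 members (32 windows in all). CAAGGNCA occurred in 6.25% of the members' windows and in 6.71% of the 32851 windows of all genes, and CAAAGTCCA in none of the members' windows and in 0.475% of all windows. A match to letters is a description and not a bound site, and no match says only that these letters are not in this window.

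Factor XI, which activates factor IX, had the largest change among the genes that were not called. F11 lay between 7.38 and 8.30 (median 8.09) in knockout livers and between 7.86 and 8.90 (median 8.50) in control livers. The groups overlapped widely, with knockout 3 lowest of all and controls 4 and 6 inside the range of the knockouts. The change of -0.41 ± 0.14 (SE) had an adjusted p of 0.0875, which was 0.027 without control 6.

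The other cascade members were not called, and all but F12 had changes at or below 0. Prothrombin, F2, averaged 11.52 ± 0.03 in knockout livers and 11.61 ± 0.05 in control livers (SD, n = 8 each, as in the averages that follow), a change of -0.08. The factor X cofactor F5 averaged 10.32 ± 0.21 in knockout livers and 10.41 ± 0.07 in control livers, a change of -0.08. F5 in knockout 8 was far below the rest. The factor VIII partner F9 averaged 10.18 ± 0.19 in knockout livers and 10.18 ± 0.09 in control livers, a change of -0.00. F12, the contact-phase protease, averaged 10.49 ± 0.06 in knockout livers and 10.38 ± 0.05 in control livers, a change of 0.11 with an adjusted p of 0.255. F13b, the carrier chain of the enzyme that cross-links fibrin, averaged 9.19 ± 0.09 in knockout livers and 9.25 ± 0.09 in control livers, a change of -0.06. The kininogen gene Kng1, cofactor of the contact phase and source of bradykinin, averaged 12.20 ± 0.06 in knockout livers and 12.30 ± 0.05 in control livers, a change of -0.10 with an adjusted p of 0.322.

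Fibrinogen is built from 3 chains encoded side by side on chromosome 3, and none of the 3 genes was called. Fga, the alpha chain, averaged 10.54 ± 0.21 in knockout livers and 10.64 ± 0.08 in control livers, a change of -0.10. Fgb, the beta chain, averaged 12.12 ± 0.13 in knockout livers and 12.22 ± 0.07 in control livers, a change of -0.09. Fgg, the gamma chain, averaged 12.41 ± 0.16 in knockout livers and 12.50 ± 0.07 in control livers, a change of -0.10. Knockout 3 was the highest of all 16 livers in each of the chains, at 10.93, 12.42 and 12.78 (Fga, Fgb and Fgg). Another, dimmer Fga probe set gave a change of -0.21.

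Knockout 3 also had the highest mean level of the acute phase genes, a set of plasma protein genes that hepatocytes raise in inflammation, to which fibrinogen belongs by function. Over the 13 acute phase genes measured, the mean log2 level ran from 9.61 to 10.48 in knockout livers, with knockout 3 at the top and the next at 10.04, and from 9.20 to 9.67 in control livers. Of those 13 genes 6 were called higher and 1 lower, against 5.49% and 3.2% of all genes. The part of the acute phase genes in the fibrinogen values, or in the rises of C9, Cfi and Pros1 below, was not tested.

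Antithrombin and protein S, which both restrain clotting, moved in opposite directions. Serpinc1, the gene of antithrombin, the main inhibitor of thrombin and factor X, lay between 11.54 and 11.82 (median 11.68) in knockout livers and between 11.93 and 12.01 (median 11.97) in control livers. All knockouts were below all controls, and the controls lay close together. The change was -0.28 ± 0.05 (SE), 82.3% of the control level, with an adjusted p of 0.00137.

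Pros1, protein S, lay between 7.89 and 8.39 (median 8.15) in knockout livers and between 7.72 and 7.94 (median 7.77) in control livers. Control 8 was above knockout 8, and the other 7 knockouts were above every control. The change was 0.40 ± 0.07 (SE), 132% of the control level, with an adjusted p of 0.000446.

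The starts of these opposed inhibitors are printed side by side, from the same RefSeq windows of GRCm38.p6 and both on the plus strand, Serpinc1 at chr1:160978333-160978632 and Pros1 at chr16:62854057-62854356. Capitals mark the matches.
Serpinc1: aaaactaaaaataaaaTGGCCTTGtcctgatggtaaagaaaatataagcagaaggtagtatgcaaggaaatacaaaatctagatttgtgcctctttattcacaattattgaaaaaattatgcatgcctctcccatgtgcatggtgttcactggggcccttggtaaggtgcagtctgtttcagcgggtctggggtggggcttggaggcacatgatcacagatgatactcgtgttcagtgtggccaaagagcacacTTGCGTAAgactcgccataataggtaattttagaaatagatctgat
Pros1: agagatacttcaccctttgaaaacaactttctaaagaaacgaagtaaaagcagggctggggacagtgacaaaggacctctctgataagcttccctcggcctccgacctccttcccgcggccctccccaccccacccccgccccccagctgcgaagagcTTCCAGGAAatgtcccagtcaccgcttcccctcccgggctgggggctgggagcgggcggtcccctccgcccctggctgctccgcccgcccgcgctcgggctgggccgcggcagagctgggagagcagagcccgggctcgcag
Serpinc1 holds CAAGGNCA on the opposite strand at position -234 and the C/EBP letters TTGCNNAA at position 5, just after the start. Pros1 holds the STAT3 letters TTCCNGGAA at position -92. TTCCNGGAA was also present in Fga and occurred in 6.25% of the members' windows, against 1.15% of all windows. TTGCNNAA occurred in 25% of the members' windows, against 10.8% of all windows. GTTAATNAT, in C4bp, F13b and Fga, occurred in 9.38% of the members' windows, against 0.801% of all windows. None of these patterns was tested for binding.

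The remaining anticoagulants were not called. Protein C, Proc, the protease that inactivates factor V, averaged 10.54 ± 0.09 in knockout livers and 10.55 ± 0.07 in control livers, a change of -0.00. Heparin cofactor II, Serpind1, an inhibitor of thrombin, averaged 11.60 ± 0.12 in knockout livers and 11.59 ± 0.04 in control livers, a change of 0.00. The difference in Proc was smaller than its SE of 0.06.

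Of the 3 fibrinolysis genes measured, plasminogen was called. Plg, the precursor of plasmin, lay between 11.65 and 11.93 (median 11.75) in knockout livers and between 11.90 and 12.04 (median 11.97) in control livers. Knockout 8 was inside the control range, and the other 7 knockouts were below it. The change was -0.21 ± 0.05 (SE), 86.7% of the control level, with an adjusted p of 0.0162. The call was lost (adjusted p = 0.0702) without knockout 1 and controls 5 and 8, the 3 arrays on which adipocyte markers were high, where the change was as large (-0.21) and its SE 0.07.

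Serpinf2, the plasmin inhibitor alpha-2-antiplasmin, averaged 11.45 ± 0.15 in knockout livers and 11.59 ± 0.10 in control livers, a change of -0.14 with an adjusted p of 0.302. Histidine-rich glycoprotein, Hrg, which binds plasminogen and heparin, averaged 11.26 ± 0.10 in knockout livers and 11.37 ± 0.09 in control livers, a change of -0.10 with an adjusted p of 0.423. Hrg and Kng1 lie near each other on chromosome 16 with 1 protein-coding gene between them.

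**Figure D2:**
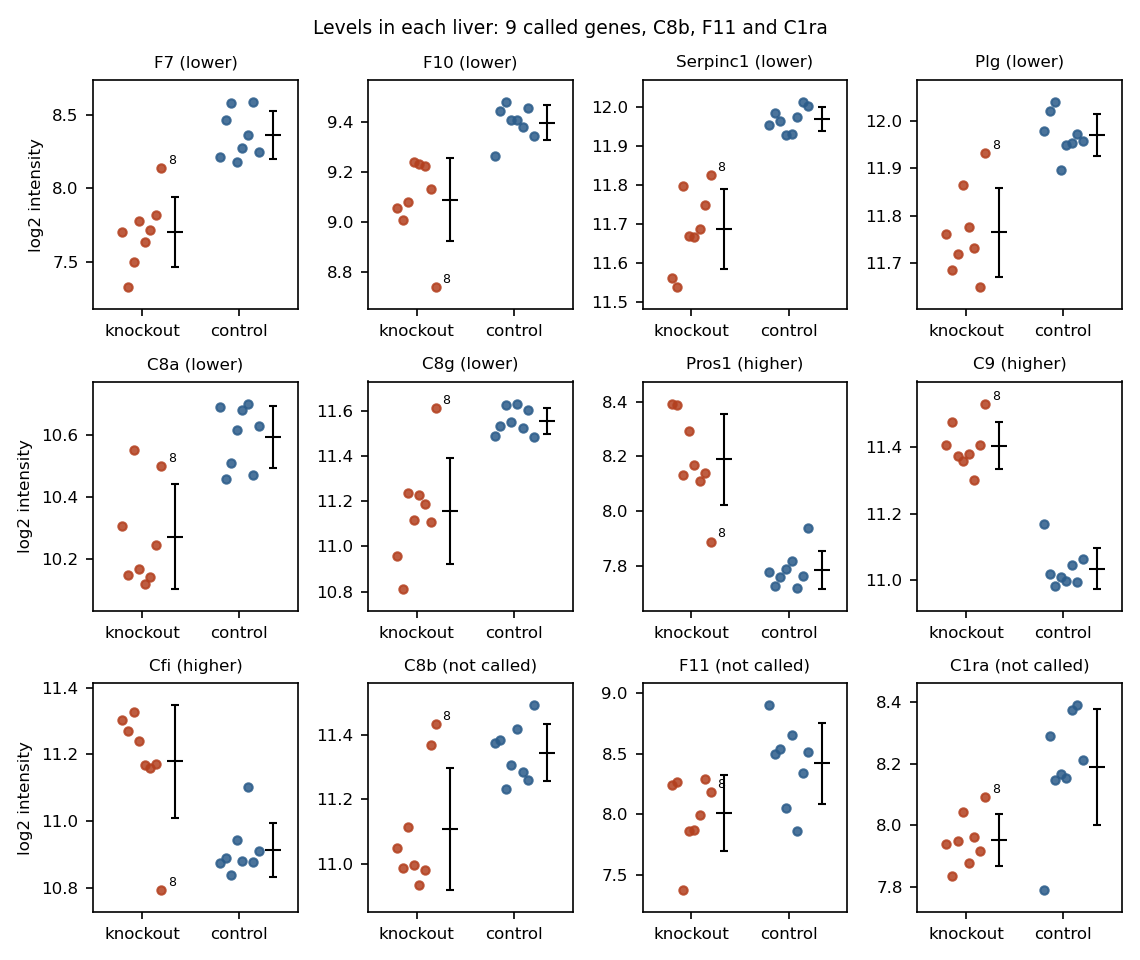
Log2 intensity (vertical axis, own scale in each panel) of the 9 called genes and of C8b, F11 and C1ra in each of 8 knockout livers (red, left) and 8 control livers (blue, right). Black bars are the mean and SD, and "8" marks knockout 8. That liver lay inside the control range in Plg, C8a, C8g, Pros1, C8b, F11 and C1ra and below all controls in Cfi.

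Within complement, the called genes lay in the terminal pathway and among the regulators. The terminal components are inserted in order into a target membrane: C8 follows C5, C6 and C7, and many copies of C9 then form the pore. C8 is made of alpha, beta and gamma chains from separate genes.

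C8a lay between 10.12 and 10.55 (median 10.21) in knockout livers and between 10.46 and 10.70 (median 10.62) in control livers. Knockouts 3 and 8 were inside the control range and the other 6 were below it. The change was -0.32 ± 0.07 (SE), 80.0% of the control level, with an adjusted p of 0.00574.

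C8g lay between 10.81 and 11.61 (median 11.15) in knockout livers and between 11.48 and 11.63 (median 11.54) in control livers. The controls lay close together, and 7 knockouts were below all of them while knockout 8 was among the highest livers of either genotype. The change was -0.40 ± 0.08 (SE), 75.9% of the control level, with an adjusted p of 0.00312. Without knockout 8 the change was -0.46.

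C8b, the neighbour of C8a on chromosome 4, lay between 10.93 and 11.43 (median 11.02) in knockout livers and between 11.23 and 11.49 (median 11.34) in control livers. Knockouts 7 and 8 were inside the control range and the other 6 were below it. The change of -0.24 ± 0.08 (SE) had an adjusted p of 0.059. C8b was called without knockout 8 (adjusted p = 0.00845), without knockout 7 (0.024) and without knockouts 3 and 8 together (0.0115). With every liver kept, it was also called after median centring (0.0386) and with array weights (0.0189). It passed in 6 of the 10 alternatives other than single arrays left out.

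C9, the pore-forming component, rose and had the smallest p of the 20 complement members. It lay between 11.30 and 11.53 (median 11.39) in knockout livers and between 10.98 and 11.17 (median 11.01) in control livers. All knockouts were above all controls, including knockout 8, which was the highest, and control 1 was the highest control. The change was 0.37 ± 0.05 (SE), 129% of the control level, with an adjusted p of 5e-05. C9 joins the complex after C8, and in knockout 8 it was high while C8g and C8a lay inside the control range.

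The start of C9 is shown because it rose while C8a and C8g fell, at chr15:6445096-6445395 on the plus strand of GRCm38.p6 in RefSeq, with the C/EBP letters TTGCNNAA at position -132 in capitals.
C9: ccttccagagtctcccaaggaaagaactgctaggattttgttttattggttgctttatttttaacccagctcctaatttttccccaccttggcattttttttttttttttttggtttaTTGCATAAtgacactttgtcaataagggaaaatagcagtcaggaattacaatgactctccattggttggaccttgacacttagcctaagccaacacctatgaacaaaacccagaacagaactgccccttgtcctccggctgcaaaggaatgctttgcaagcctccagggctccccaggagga
The windows of C8a, C8b and C8g held no match to any of the 5 patterns.

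C6, which joins the complex before C8, averaged 10.33 ± 0.16 in knockout livers and 10.53 ± 0.17 in control livers, a change of -0.20 with an adjusted p of 0.18. Outside the 40 genes, Hc, which encodes C5, rose by 0.26 ± 0.06 (SE; adjusted p = 0.00597). Hc averaged 11.62 ± 0.10 in knockout livers and 11.36 ± 0.09 in control livers. C7 averaged 5.28 ± 0.35 in knockout livers and 5.07 ± 0.57 in control livers, a change of 0.21 with an adjusted p of 0.742.

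Among the regulators, Cfi rose. It encodes factor I, the protease that cuts active C3b and C4b. Cfi lay between 10.79 and 11.33 (median 11.21) in knockout livers and between 10.84 and 11.10 (median 10.89) in control livers. In 7 knockouts it was above every control, and in knockout 8 it was below every control. The change was 0.26 ± 0.07 (SE), 120.1% of the control level, with an adjusted p of 0.0199. The call was lost without the 3 arrays high in adipocyte markers (adjusted p = 0.125), where the change was 0.24 ± 0.08 (SE).

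The other regulators were not called. C4bp, the factor I cofactor for C4b, averaged 11.23 ± 0.17 in knockout livers and 11.23 ± 0.08 in control livers, a change of -0.00. Vitronectin, Vtn, which keeps the terminal complex out of membranes, averaged 12.51 ± 0.11 in knockout livers and 12.44 ± 0.06 in control livers, a change of 0.07. The C1 inhibitor Serping1 averaged 11.71 ± 0.09 in knockout livers and 11.79 ± 0.10 in control livers, a change of -0.07.

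In the classical pathway no gene was called. The C1q chains, which recognise bound antibody and are made by macrophages, changed by 0.04 (C1qa), 0.15 (C1qb) and -0.01 (C1qc), each with an SE of 0.10 or more. C1qa averaged 7.55 ± 0.16 in knockout livers and 7.51 ± 0.26 in control livers. C1qb averaged 8.76 ± 0.24 in knockout livers and 8.61 ± 0.25 in control livers, and C1qc averaged 7.76 ± 0.42 in knockout livers and 7.77 ± 0.27 in control livers. Over 9 Kupffer cell and macrophage markers the mean log2 level ran from 6.68 to 7.40 in knockout livers and from 6.86 to 7.25 in control livers. Of those markers only Lyz2 was called, higher by 0.58. Over the 9 markers, 4 changes were above 0 and 5 below, with a median of -0.02.

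C1ra, a protease of the C1 complex, lay between 7.84 and 8.09 (median 7.94) in knockout livers and between 7.79 and 8.39 (median 8.19) in control livers. Control 1 was the lowest liver of all, and the other 7 controls were above every knockout. The change of -0.24 ± 0.08 (SE) had an adjusted p of 0.0538, which was 0.00257 without control 1 and 0.0359 without knockout 8. With every liver kept, the adjusted p was 0.0197 after quantile normalization and 0.00122 with array weights. C1ra passed in 4 of the 10 alternatives other than single arrays left out. The mouse has a near-identical copy, C1rb, so the C1ra signal is uncertain. C2, the protease of the classical convertase, averaged 8.40 ± 0.29 in knockout livers and 8.22 ± 0.16 in control livers, a change of 0.18 with an adjusted p of 0.467, and knockout 8 stood far above the rest.

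The lectin and alternative pathway genes were not called either. Mbl2, a mannose-binding lectin, averaged 8.83 ± 0.19 in knockout livers and 8.61 ± 0.23 in control livers, a change of 0.22 with an adjusted p of 0.253. Mbl1, the other lectin, averaged 9.77 ± 0.14 in knockout livers and 9.86 ± 0.11 in control livers, a change of -0.09. Masp1, a protease bound to the lectins, averaged 10.03 ± 0.16 in knockout livers and 9.99 ± 0.09 in control livers, a change of 0.04, and its dimmer probe set gave -0.01. Cfb, the protease of the alternative convertase and the neighbour of C2 on chromosome 17, averaged 10.77 ± 0.08 in knockout livers and 10.73 ± 0.08 in control livers, a change of 0.04. Properdin, Cfp, which stabilises that convertase, averaged 7.54 ± 0.30 in knockout livers and 7.50 ± 0.16 in control livers, a change of 0.04. C5ar1, the receptor for the C5a fragment on myeloid cells, averaged 5.19 ± 0.21 in knockout livers and 5.16 ± 0.10 in control livers, a change of 0.03.

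The spread between livers was larger among the knockouts in most members. The SD was larger in knockout than in control livers in 30 of the 40 genes (75.0%), against 53.8% of all genes and 60.4% of the genes at or above the median intensity. The median SD over the members was 0.16 in knockout livers and 0.09 in control livers. Without knockout 8, which is at an end of its genotype in many members so that its removal must narrow the spread, the SD was larger in knockout livers in 24 of 40 genes (60%), against 42.8% of all genes, with a median SD of 0.11. Without knockouts 3 and 8 it was larger in 16 of 40 (40%), against 41.4% of all genes, with a median of 0.08. Those livers were chosen after the data were seen and no control was left out. The lower share therefore does not show that the other knockouts varied as little as the controls. Of the 9 called genes, 4 in knockout 8 and 1 in knockout 3 lay inside the control range, and none did in the other 6 knockouts.

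**Figure D3:**
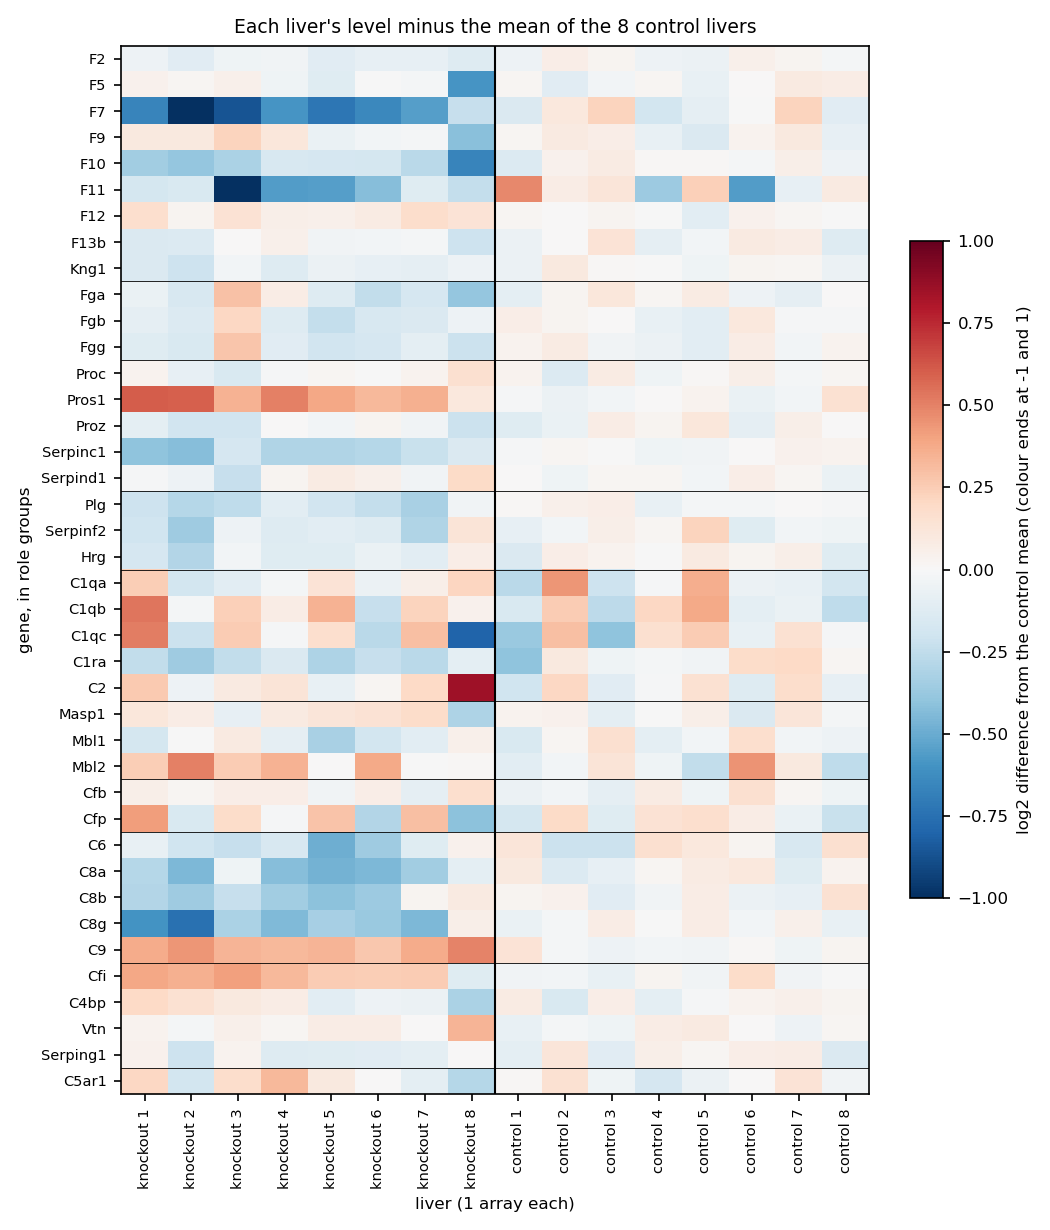
Log2 difference of each liver (columns, knockouts left of controls) from the mean of the 8 control livers, for the 40 genes (rows) in groups by role, with colours ending at -1 and 1. F7, F10 and Serpinc1 are blue and C9 is red in all 8 knockouts, while knockout 8 departs from the other knockouts in F5, C2, C8g and Cfi.

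Many of these transcripts are among the brightest on the array, where a signal near its ceiling would be compressed. A gene was called bright when its mean log2 level was in the top 1% of all probe sets, a limit of 11.39, and 10 members were. These were F2, Kng1, Fgb, Fgg, Serpinc1, Serpind1, Plg, Serpinf2, Vtn and Serping1. The brightest of them, Vtn, lay 1.04 below the mean array maximum on the log2 scale. Serpinc1 and Plg were the called genes among the 10, and 7 of the other 30 members were called. The median absolute change was 0.10 in the bright members and 0.11 in the others, and the median SD among controls was 0.06 and 0.09. Whether the bright changes are compressed was not tested.

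**Figure D4:**
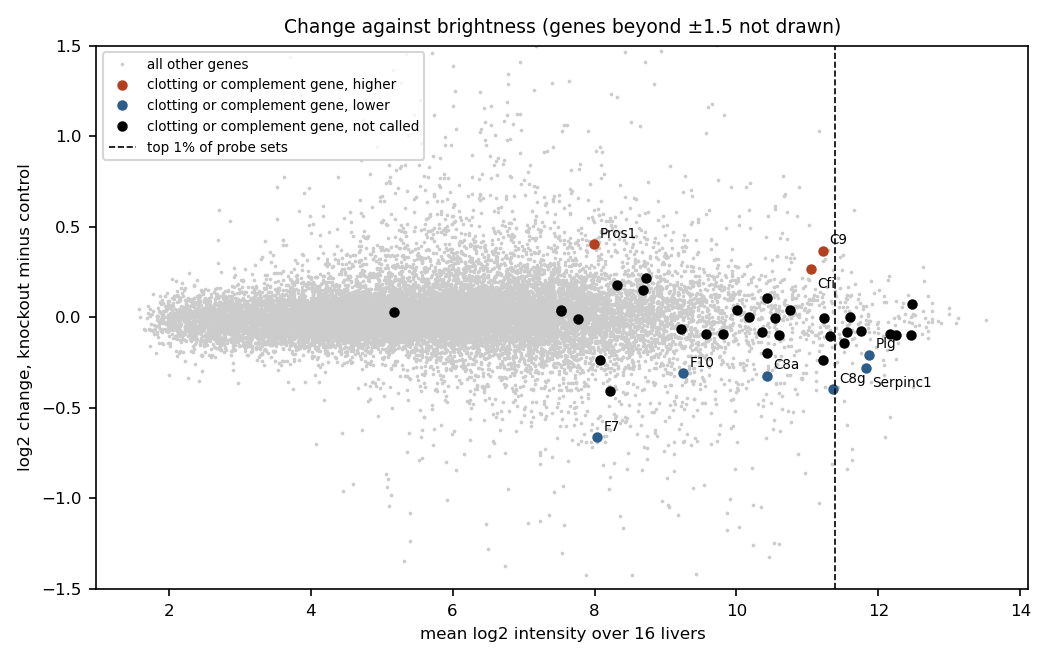
Log2 change (knockout minus control, vertical axis) against mean log2 intensity over the 16 livers (horizontal axis) for the 40 genes (large points) and all other genes (small grey points). The dashed line marks the top 1% of probe sets at 11.39; Plg and Serpinc1 are the called genes to its right, and every member but C5ar1 lies among the brighter genes.

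Genes that encode chains of the same protein were compared from liver to liver within each genotype, by Pearson's r and Spearman's rho over 8 livers with exact permutation tests and Benjamini-Hochberg adjustment over 18 relations. Fga and Fgg had r = 0.86 in knockout livers (exact permutation adjusted p = 0.0411; rho = 0.67, adjusted p = 0.214) and r = -0.44 in control livers (adjusted p = 0.32; rho = -0.36, adjusted p = 0.55). The knockout r fell to 0.44 without the 2 livers farthest from the median of Fga. Leaving out the ends of a range can lower r by itself, so such values, here and below, only describe the data. Fgb and Fgg had r = 0.85 in control livers (exact permutation adjusted p = 0.0481; rho = 0.74, adjusted p = 0.137), and 0.66 without the 2 farthest livers. In knockout livers Fgb and Fgg had r = 0.88 with an exact permutation adjusted p of 0.151, and r = -0.53 without the 2 farthest, so the positive r was not seen without them.

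C1qa and C1qb had r = 0.88 and rho = 0.88 in control livers (exact permutation adjusted p = 0.0286 and 0.0326), and r = 0.76 without the 2 farthest livers. C1qc had rho = 0.90 with each of them in control livers (exact permutation adjusted p = 0.0326), although r of 0.81 with C1qa and 0.80 with C1qb did not pass (adjusted p = 0.0896). In knockout livers C1qa and C1qb had r = 0.58 (exact permutation adjusted p = 0.237; rho = 0.55, adjusted p = 0.385). C1qb and C1qc had r = 0.73 in knockout livers (exact permutation adjusted p = 0.112; rho = 0.83, adjusted p = 0.0554) and 0.70 without the 2 farthest, and C1qa and C1qc had r = 0.06 (adjusted p = 0.898; rho = 0.26, adjusted p = 0.603). For C8a and C8b r was 0.61 in knockout livers (exact permutation adjusted p = 0.151), with rho = 0.88 (adjusted p = 0.0326), and 0.34 in control livers (adjusted p = 0.418; rho = 0.19, adjusted p = 0.665). C8g did not pass with either partner in either genotype. The difference of these values between genotypes was not tested.

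**Figure D5:**
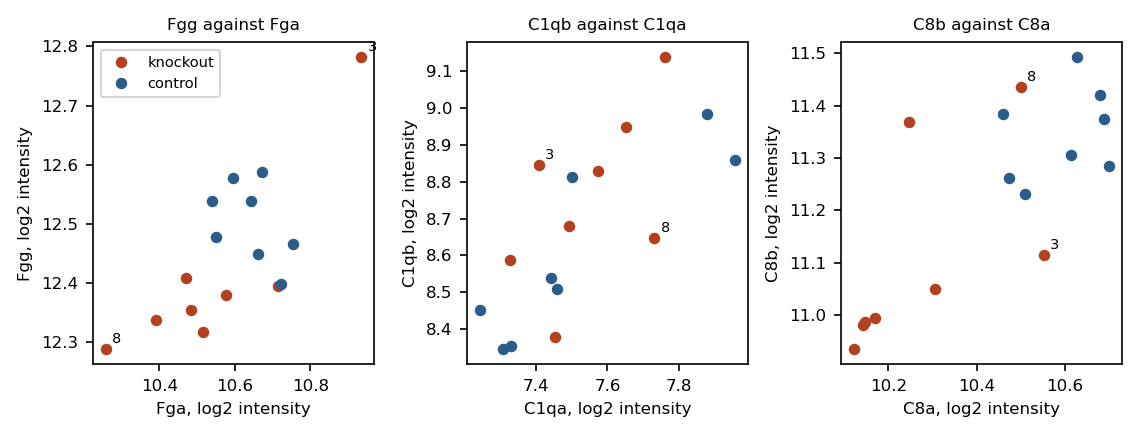
Log2 intensity of chains of the same protein plotted against each other, Fgg against Fga, C1qb against C1qa and C8b against C8a, in 8 knockout livers (red) and 8 control livers (blue). Knockouts 3 and 8 are marked; they are the highest and the lowest knockout in the fibrinogen panel.

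The level of each called member was also set against that of Nr5a2 within each genotype, a comparison chosen after the data were seen and covering 18 relations. C8g went with Nr5a2 in knockout livers, with r = 0.82 (exact permutation adjusted p = 0.0276; rho = 0.79, adjusted p = 0.165) and 0.63 without the 2 livers farthest from the Nr5a2 median. In control livers C8g had r = 0.87 (exact permutation adjusted p = 0.0219; rho = 0.88, adjusted p = 0.13) and 0.81 without the 2 farthest. F10 had r = 0.88 in control livers (exact permutation adjusted p = 0.0219; rho = 0.76, adjusted p = 0.165), which was 0.46 without the 2 farthest, and r = -0.09 in knockout livers (adjusted p = 0.929; rho = 0.24, adjusted p = 0.796). C9 had r = -0.86 in control livers (exact permutation adjusted p = 0.0219; rho = -0.83, adjusted p = 0.138), which was -0.52 without the 2 farthest, and r = 0.07 in knockout livers (adjusted p = 0.929; rho = -0.07, adjusted p = 0.992). No relation passed by Spearman's rho, and none of the other 6 genes passed in either genotype.

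Of 71 further genes of the same pathways, 59 were measured, and 12 rose (against 5.49% of all genes) and 7 fell (against 3.2% of all genes), with a median change of 0.03. This list was also chosen with earlier results of these data known, so its shares are descriptive. The 7 that fell became 4 without knockout 5 or without control 3. Several of these changes exceeded those of the plasma factors themselves. Susd4, a membrane inhibitor of complement convertases, had the largest. It lay between 5.52 and 6.61 (median 5.84) in knockout livers and between 7.42 and 8.75 (median 8.29) in control livers. The groups were far apart, and the change was -2.29 ± 0.16 (SE), 20.4% of the control level, with an adjusted p of 5.47e-09.

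Hgfac, the hepatocyte growth factor activator, a protease related to factor XII, lay between 7.43 and 8.04 (median 7.66) in knockout livers and between 9.43 and 9.89 (median 9.58) in control livers. Every knockout was well below every control, with a change of -1.89 ± 0.10 (SE), 27.1% of the control level, and an adjusted p of 2.76e-11.

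Of 5 other fibrinolysis genes measured, 3 rose and none fell, against 5.49% of all genes called higher and 3.2% called lower. Anxa2 and S100a10 encode the partners of a surface receptor for plasminogen, and they rose by 1.02 ± 0.16 and 0.72 ± 0.09 (SE; adjusted p = 0.000145 and 1.29e-05). Anxa2 averaged 6.89 ± 0.41 in knockout livers and 5.87 ± 0.31 in control livers, and S100a10 averaged 11.24 ± 0.20 in knockout livers and 10.53 ± 0.18 in control livers. Urokinase, Plau, which cuts plasminogen to plasmin, rose by 0.26 ± 0.07 (SE; adjusted p = 0.0199), a call lost without the arrays high in adipocyte markers (adjusted p = 0.06, change 0.26) and without knockouts 3 and 8 together (adjusted p = 0.0551, change 0.23). Plau was dim, below the 25th percentile of intensity, and averaged 4.55 ± 0.12 in knockout livers and 4.29 ± 0.13 in control livers. Plg itself fell in the same livers, as given above.

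Of 11 other anticoagulant genes 4 rose and 1 fell, against 5.49% of all genes called higher and 3.2% called lower. Gas6, a relative of protein S, rose by 0.79 ± 0.12, annexin A5 (Anxa5) by 0.72 ± 0.13, protein C inhibitor (Serpina5) by 0.81 ± 0.18 and Tfpi2, a protease inhibitor of the tissue factor pathway inhibitor family, by 0.39 ± 0.07 (SE; adjusted p between 8.67e-05 and 0.00395). Serpina5 was dim, below the median intensity of all genes, and averaged 5.61 ± 0.55 in knockout livers and 4.80 ± 0.16 in control livers. Mug1, a relative of alpha-2-macroglobulin, fell by 0.23 ± 0.05 (SE, adjusted p = 0.00269), and its near-identical relatives make that signal uncertain.

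Tissue factor, F3, which starts clotting with factor VII, rose by 0.47 ± 0.09 (SE; adjusted p = 0.0011). F3 averaged 5.56 ± 0.21 in knockout livers and 5.09 ± 0.16 in control livers. Habp2, a protease that can activate factor VII, rose by 0.23 ± 0.06 (SE; adjusted p = 0.0136), a call lost without the arrays high in adipocyte markers (adjusted p = 0.0637), where the change was again 0.23. Nqo1, a quinone reductase able to reduce vitamin K, rose by 0.41 ± 0.09 (SE; adjusted p = 0.00314), and it was the called gene among 4 of the vitamin K cycle. Nqo1 averaged 5.50 ± 0.15 in knockout livers and 5.09 ± 0.20 in control livers. Both F3 and Nqo1 were dim, below the median intensity of all genes. Factor VIII and von Willebrand factor, made mainly by endothelial cells, changed by -0.01 ± 0.09 (F8, adjusted p = 0.99) and -0.00 ± 0.06 (Vwf, adjusted p = 0.997).

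C4a, a copy of complement component 4, fell by 0.54 ± 0.12 (SE; adjusted p = 0.00445), and its near-identical copy C4b, like Cfd, is not analysed here. Also called were Mcfd2, a carrier for the secretion of factors V and VIII (-0.28 ± 0.08 SE, adjusted p = 0.0278), the membrane inhibitor Cd59b (-0.32 ± 0.09 SE, adjusted p = 0.0285), the carboxypeptidase N chain Cpn2 (-0.29 ± 0.08 SE, adjusted p = 0.0234) and the complement receptor chain Itgax (0.31 ± 0.09 SE, adjusted p = 0.0374). These 4 calls depended on single livers: with each array left out in turn, Mcfd2 passed in 10 of 16 fits, Cd59b in 12, Cpn2 in 9 and Itgax in 7. Mcfd2, Cd59b and Cpn2 were all lost without knockout 5 (adjusted p = 0.06, 0.051 and 0.0528) and without control 3 (0.0556, 0.0608 and 0.0523). None of the 4 passed without the arrays high in adipocyte markers (adjusted p = 0.087 for Mcfd2, 0.126 for Cd59b, 0.0646 for Cpn2 and 0.142 for Itgax), with changes of -0.29, -0.31, -0.31 and 0.29. Itgax was also dim, below the median intensity of all genes, and averaged 4.83 ± 0.22 in knockout livers and 4.53 ± 0.16 in control livers. None of 3 thrombin receptor genes was called.

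Markers of the liver's cell types were read beside these results. None of 8 hepatocyte markers was called, and their mean log2 level ran from 12.54 to 12.61 in knockout livers and from 12.54 to 12.67 in control livers. Of 6 stellate cell markers 3 were called higher and 1 lower, against 5.49% and 3.2% of all genes. Their mean ran from 7.51 to 8.29 (median 7.78) in knockout livers and from 7.44 to 8.24 (median 7.58) in control livers. Knockout 5 and control 4 were at the top, with the next livers at 7.928 and 7.695. Over the stellate markers, 5 changes were above 0 and 1 below, with a median of 0.30. Of 5 cholangiocyte markers Epcam was called higher, with the list's mean between 5.03 and 5.36 in knockout livers and between 4.95 and 5.19 in control livers. No endothelial (7 measured), platelet (4), neutrophil (6), lymphocyte (5), adipocyte (4) or pancreatic acinar (3) marker was called. The platelet list averaged 6.46 in knockout 5, against at most 5.47 in the other knockouts and 5.56 in control livers. The adipocyte list averaged 6.48 in knockout 1, 6.86 in control 5 and 5.90 in control 8, against at most 4.84 in the other 13 livers. The part of these cell types in the clotting and complement changes was not tested.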

How the data were processed

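RNA of 16 mouse livers, 8 per genotype, was measured on 1 Affymetrix whole-transcript array each, from 100 ng of total RNA per the labels' protocols. The authors deposited 1 linear intensity per probe set. They used Affymetrix Expression Console, of unnamed version, per the submitters' processing notes. How probes were summarised, background-corrected and normalized is not given in the sources used here. Array medians lay between 38.9 and 43.5, so no further normalization was applied, and log2 was taken with no pseudocount.

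Of 35556 probe sets, 21456 were annotated to exactly 1 gene, 2376 to several (not used) and 11724 were unlisted. The probe set with the highest mean stood for each of 19237 genes. Genotype was tested across all of them with limma 3.58.1 (lmFit and eBayes) in R 4.3.3, with Benjamini-Hochberg adjustment and a threshold of 0.05. The test was checked on simulated data. The labels number the livers as biological replicates within a genotype. No arrays held identical values.

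The members and the lists of further pathway genes and markers were chosen with earlier results of these data known. Every measured member is named. Of the other pathway genes, called ones were named, 15 at most by smallest p, along with F3, F8, Vwf, C4b, Hc, C7 and Cfd, and 1 further gene of that rule is not reported here. Mcfd2, Cd59b, Cpn2 and Itgax fall outside that rule and were named after their values were seen, so that every call is given. Alternatives were a replicate block, quantile normalization, median centring, filters on dim genes, averaging a gene's probe sets, a variance trend with intensity, array weights, removal of arrays high in adipocyte markers, and each array left out in turn. Leaving out knockouts 3 and 8 together was chosen after seeing the data. Promoter windows came from RefSeq (GRCm38.p6), and no protein sequence was used here.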

Additional observations from a re-analysis of the deposited data

Results flagged for a closer look

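In 16 of 124 groups of 8 livers, over the 40 members and 22 further pathway genes, a single liver stood apart from the others by Dixon's criterion (its gap to the nearest liver is too large a share of the range). Chance marks about 1 in 20 such groups, but the groups share the same livers and are not independent, so an excess was not tested. Of these 16 groups, 13 were among the 80 of the members.

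Knockout 8 stood apart in 6 members. It was the lowest knockout in F5 (9.82 log2 intensity), F9 (9.76), F10 (8.74) and Cfi (10.79), and the highest in C2 (9.07) and Vtn (12.78). Knockout 3 was the highest knockout in Fgb (12.42) and Fgg (12.78).

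Among the controls, C9 was highest in control 1 (11.17), Pros1 in control 8 (7.94) and Cfi in control 6 (11.10). C1ra was lowest in control 1 (7.79), F12 in control 5 (10.28) and Nqo1 in control 8 (4.68). Cd59b was lowest in knockout 8 among the knockouts (5.79) and in control 1 among the controls (6.22). The cause of these values was not tested.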

How the results depend on the processing

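Of the 9 called members, 7 passed in all 26 other settings (F7, F10, Serpinc1, Pros1, C8a, C8g and C9), and none of the 9 changed direction. Plg was lost with the replicate block (change -0.21, adjusted p = 0.0638) and Plg and Cfi without the arrays high in adipocyte markers, where fewer samples remain. Of the 31 members not called, 28 passed in no setting, and F11, C1ra and C8b passed in some. The members called lower were between 5 and 8 and those called higher 2 or 3. The other pathway genes called lower were 7, and 4 without the arrays high in adipocyte markers. With each array left out in turn they were between 4 and 8, with 4 both without knockout 5 and without control 3; the cause was not tested. Over all genes, removing the adipocyte arrays left 713 higher and 416 lower calls, against 1057 and 616. The replicate numbers did not pair the livers: the correlation of same-numbered livers ran from -0.26 to 0.24, and 0 of 8 livers matched best with its own number. With the block 5 members were called lower and 3 higher. No array passed the limit on acinar markers, so that alternative gave no value. Fgb and Fgg in control livers no longer passed after median centring (r = 0.79, exact permutation adjusted p = 0.0665). Whether signals near the array maximum compress the changes of the bright genes was not tested.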
